A study of Mus musculus with 5 samples.

Results

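The genes described here encode the GATA, Tal1 and LMO2 complex factors of blood progenitors. They are Gata1, Gata2, Gata3, Zfpm1, Tal1, Lyl1, Lmo2, Ldb1 and Klf1. Their probe sets were taken from the deposited table wherever the platform annotation gave exactly 1 symbol and it was among these 9. All 9 genes were found, on 11 of the 45037 probe sets, with 2 each for Gata2 and Zfpm1 and 1 for each other gene. Expression had been measured on 5 Affymetrix mouse arrays. Of these, 3 held RNA of common dendritic cell progenitors (CDP), which give rise to dendritic cells. The other 2 held RNA of common myeloid progenitors (CMP), which lie upstream of granulocytes, monocytes, red cells and megakaryocytes. All mice were C57BL/6 of the wild type genotype, and the tissue was bone marrow. Both populations had been sorted as negative for lineage markers and Sca-1 and positive for CD34 and Flk2, without CD16/32. CDP carried CD115 with intermediate c-kit, whereas CMP had c-kit at a high level and neither CD115 nor CD11c. The labels give neither the ages of the animals nor whether arrays came from separate animals or pools, so the spread behind the p-values is that among these arrays and may be technical.

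GATA proteins are zinc finger factors that bind DNA at the letters GATA, and Tal1 and Lyl1 are related helix-loop-helix factors that bind E-boxes together with E proteins. Lmo2 and Ldb1 do not bind DNA themselves and bridge the GATA and helix-loop-helix factors into a single complex. Gata2 serves stem and progenitor cells and mast cells, Gata1 takes its place in red cell and megakaryocyte formation together with its cofactor Zfpm1 (FOG1), and Klf1 completes the red cell program at CACCC letters. Gata3 is best known from T cells and innate lymphoid cells. In people, inherited loss of GATA2 function depletes dendritic cells and monocytes.

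The promoters of 4 members are shown because they carry, or lack, the letters these same factors bind. They cover 250 bases before the most upstream start of each gene in RefSeq (GRCm38.p6), 5′ to 3′ on the strand of the gene, and capitals mark 3 kinds of letters on either strand. These are GATA letters, searched as AGATAA and separately as TGATAA, E-box letters, searched as CAGATG and separately as CAGCTG, and CACCC letters, searched as CCACCC, with no overlap between kinds.
Gata2, chr6:88193641-88193890, plus strand: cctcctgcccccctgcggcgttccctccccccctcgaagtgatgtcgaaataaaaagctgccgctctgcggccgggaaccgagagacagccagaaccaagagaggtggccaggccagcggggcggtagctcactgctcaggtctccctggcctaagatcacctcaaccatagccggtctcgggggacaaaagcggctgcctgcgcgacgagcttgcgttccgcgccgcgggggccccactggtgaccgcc
Tal1, chr4:115056176-115056425, plus strand: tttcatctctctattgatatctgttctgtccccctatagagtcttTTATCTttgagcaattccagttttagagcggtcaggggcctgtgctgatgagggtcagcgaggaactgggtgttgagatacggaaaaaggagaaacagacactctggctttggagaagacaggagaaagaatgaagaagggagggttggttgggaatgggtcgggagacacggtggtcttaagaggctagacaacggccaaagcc
Klf1, chr8:84901732-84901981, plus strand: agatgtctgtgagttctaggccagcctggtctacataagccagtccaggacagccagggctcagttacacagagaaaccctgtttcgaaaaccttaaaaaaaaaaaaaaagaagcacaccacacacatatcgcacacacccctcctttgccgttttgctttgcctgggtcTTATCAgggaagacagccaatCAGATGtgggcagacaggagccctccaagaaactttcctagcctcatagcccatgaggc
Gata1, chrX:7967911-7968160, minus strand: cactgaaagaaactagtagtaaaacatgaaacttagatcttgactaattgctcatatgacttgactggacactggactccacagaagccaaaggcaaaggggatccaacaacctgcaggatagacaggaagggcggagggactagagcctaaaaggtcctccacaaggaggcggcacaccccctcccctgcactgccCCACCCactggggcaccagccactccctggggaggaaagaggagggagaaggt
In the window of Klf1, TGATAA lay on the opposite strand with its first printed base 80 bases before the start, and CAGATG lay 59 bases before it on the same strand. The window of Tal1 held AGATAA on the opposite strand, 205 bases before the start. That of Gata1 held CCACCC 53 bases before the start and no GATA letters. The window of Gata2 held none of these letters, and neither did that of its second start. Among all 32851 promoter windows of the table, 16.6% held GATA letters, 25.5% held E-box letters and 28.1% held CACCC letters. Of the 12 windows of members, which covered 8 of the 9 genes, 3 held GATA letters (Tal1, Klf1 and the third start of Ldb1), 1 held E-box letters (Klf1) and 6 held CACCC letters. These matches describe the letters and are not evidence of binding.

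Expression of Gata2 was lower in CDP than in CMP, and it was the only member whose difference passed the test. Lmo2 was also lower on every CDP array than on every CMP array without passing. Lyl1, Tal1 and Ldb1 were detected in both populations with overlapping values, and Gata1, Gata3, Zfpm1 and Klf1 stayed below the detection level of log2 5 on all 5 arrays. Probe sets were tested with limma where at least 2 arrays reached that level, with Benjamini-Hochberg adjustment over all 16552 tested probe sets and a threshold of 0.05. Of the 11 member probe sets 5 were below that level on all arrays, against 61% of all probe sets. The other 6, covering 5 genes, were tested, as were 36.8% of all probe sets. Of the 6 tested, 1 was called lower in CDP and 0 higher, against 0.423% called lower and 1.31% called higher among all tested probe sets. An unadjusted limma p under 0.05 was reached by 3 of the 6, namely both of Gata2 and that of Lmo2, all lower. Among all 16552 tested probe sets 2640 reached it, in either direction. The CDP and CMP arrays did not overlap on 3 of the 6, all lower in CDP, against 11% of all tested probe sets that were lower without overlap and 21.2% that were higher without overlap. Among the 3, the Gata2 probe set 1428816_a_at met the filter only through the CMP arrays. The median difference, CDP minus CMP, over all tested probe sets was 0.12 on the log2 scale, and quantile normalization moved it to 9.12e-05.

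**Figure D1:**
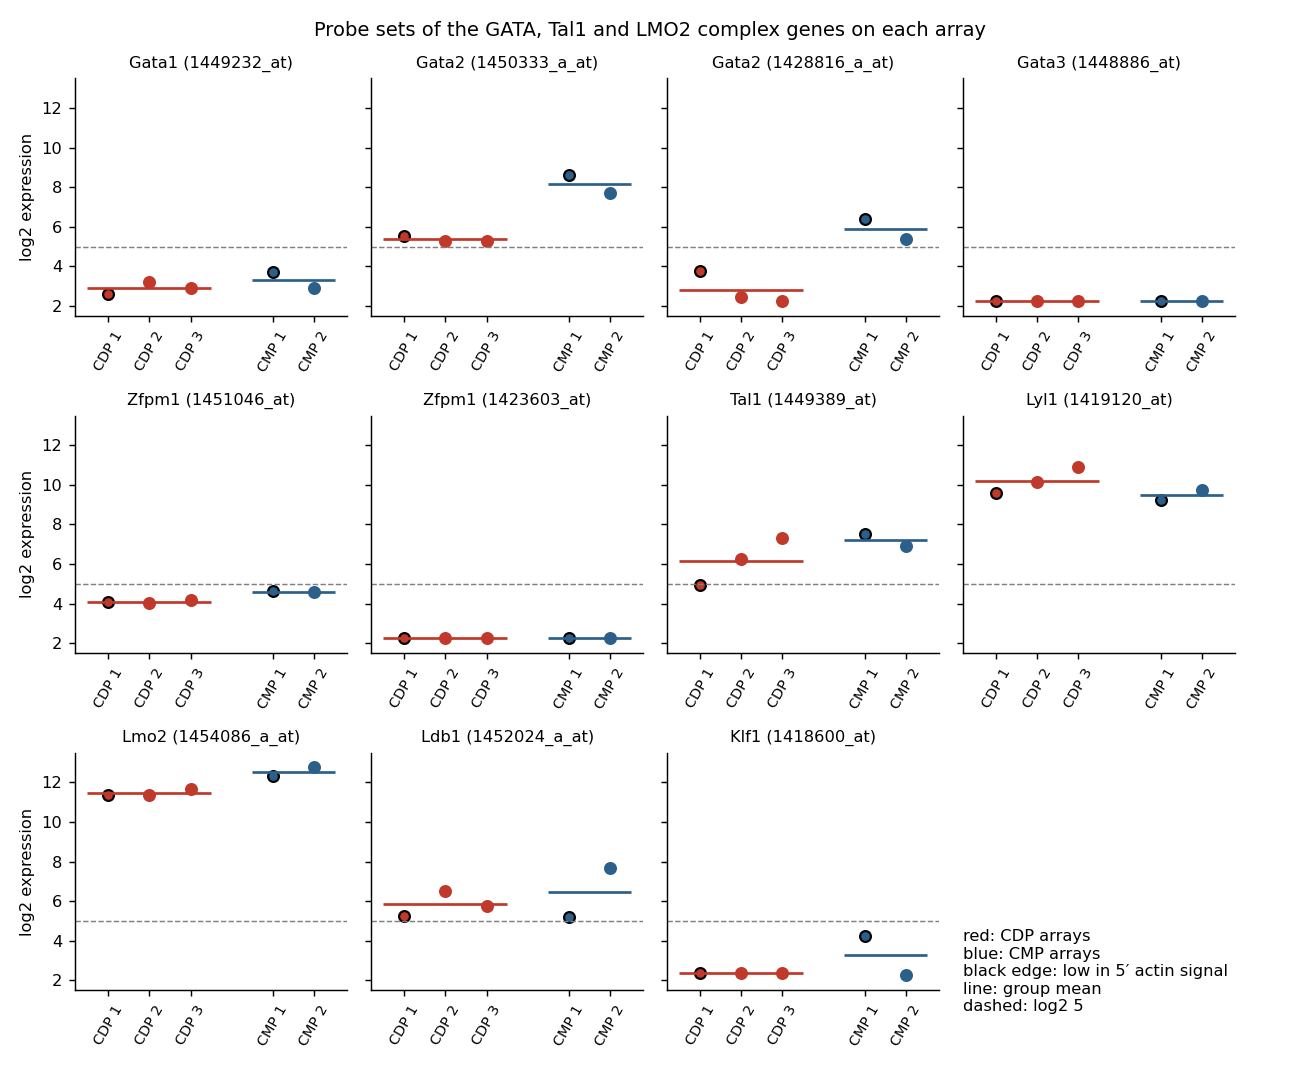
Log2 expression of each of the 11 member probe sets (panels) on the 3 CDP arrays (red, left) and the 2 CMP arrays (blue, right), with lines at group means, a dashed line at log2 5 and black edges on the 5′-poor arrays. Both Gata2 probe sets and Lmo2 are lower on all CDP arrays, and the panels of Gata1, Gata3, Zfpm1 and Klf1 lie below the dashed line throughout.

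Between 34.0% and 35.8% of probe sets reached log2 5 on each array. The arrays differed in the 5′ signal of beta-actin controls. The 3′ control exceeded the 5′ control by 8.05 (log2) on CDP 1 and 7.35 on CMP 1, and by 1.81 to 4.48 on the other 3 arrays. By the actin controls alone, CDP 1 and CMP 1 are called the 5′-poor arrays below. The Gapdh controls gave another order. Their 3′ control exceeded the 5′ control most on CDP 3, by 6.60. The excess was 4.64 on CDP 1, 4.71 on CMP 1, 3.88 on CDP 2 and 3.22 on CMP 2. Each setting with the 5′ signal as a block rests on the actin controls. Such a setting leaves fewer residual degrees of freedom than the fit without a block. Genes that pass only there are therefore not read as more strongly supported. Correlations between arrays over tested probe sets ran from 0.846 to 0.974, and CMP 1 correlated more with CDP 1 (0.924) than with CMP 2 (0.895). CDP 2 stood apart in transcripts of mature neutrophils, with all 8 neutrophil markers that have a probe set above log2 5 on CDP 2 and below it on every other array. Their values summed on the linear scale (2 to the power of each log2 value) came to 16400 on CDP 2, against 47.7 to 66.3 on each of the 4 others, and no marker of this list met the filter. Of 6 genes of the sorting markers, all tested, 1 was higher, 1 lower and 4 did not pass. Itgax (CD11c) was seen only on CDP arrays, at 6.38 to 7.78 (adjusted p = 0.0155), and Kit was lower in CDP by 2.57 ± 0.34 (log2, SE). Csf1r, which encodes CD115, read 12.94 to 13.16 in CDP and still 11.75 and 11.03 in CMP. With the 5′ signal as a block Csf1r (higher) and Cd34 (lower) passed too, and with no filter 0 of these genes did. CDP 3 carries the title prefix CM and the other 4 arrays BM, while its tissue and cell type are given as for CDP 1 and 2. Without CDP 3 the differences of members were -2.73 for Gata2 on its brighter probe set, -1.19 for Lmo2, -1.62 for Tal1, 0.39 for Lyl1 and -0.54 for Ldb1, of which 0 passed in limma (4 of the 6 probe sets had an unadjusted p under 0.05).

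Gata2 was read by 2 probe sets, each of a kind designed to match several transcripts of 1 gene. The brighter, 1450333_a_at, had log2 values of 5.55, 5.31 and 5.31 on CDP 1, 2 and 3, against 8.60 and 7.71 on CMP 1 and 2. All CDP values were just above the detection level, while each CMP array was more than 2 log2 units above them. The means were 5.39 ± 0.14 in CDP and 8.16 ± 0.63 in CMP (SD, n = 3 and 2), a difference of -2.77 ± 0.38 (SE, 95% interval -3.69 to -1.85), or 6.83-fold lower in CDP (limma, adjusted p = 0.0349). CMP 1 exceeded CMP 2, so that the 2 CMP arrays differed more than the 3 CDP arrays did. Between the 5′-poor arrays, 1 against 1, the difference was -3.06 and between the others, 2 against 1, it was -2.40. Leaving out any 1 array kept the difference between -3.22 and -2.33 and ended the call, with adjusted p = 0.0741 without CDP 1, 0.191 without CDP 2, 0.211 without CDP 3, 0.146 without CMP 1 and 0.103 without CMP 2. In sorted populations measured in bulk, fewer Gata2-expressing cells and less Gata2 RNA per cell cannot be told apart.

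The dimmer Gata2 probe set, 1428816_a_at, had 3.76, 2.48 and 2.26 in CDP, all below detection, against 6.38 and 5.40 in CMP. The groups again did not overlap, and the order of CMP 1 over CMP 2 was the same as on the brighter probe set. The difference was -3.06 ± 0.57 (SE) with adjusted p = 0.068, which missed the threshold, and the fold was at least 1.85 lower in CDP when values below log2 5 were set to 5. With the 5′-poor arrays as a block it passed (adjusted p = 0.00496), as did the brighter one (adjusted p = 0.00606). The dimmer probe set met the filter only through the CMP arrays, the group where it was high. Its tests and its lack of overlap are therefore no separate support for the Gata2 difference.

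Gata1, the factor that succeeds Gata2 in red cell and megakaryocyte formation, read 2.61, 3.19 and 2.89 in CDP, against 3.73 and 2.90 in CMP. All 5 values were below detection and the groups overlapped. Gata3 read 2.26 to 2.27 in CDP and 2.28 on both CMP arrays, at or within 0.02 of the table's lowest value of 2.26. These readings carry no order that can be interpreted. Of the same family outside the set, Gata4, Gata5 and Gata6 likewise read at most 2.36 on every array.

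Zfpm1, the cofactor that docks on the amino-terminal finger of GATA factors, gave 4.06, 4.02 and 4.17 in CDP, against 4.63 and 4.57 in CMP, on 1451046_at. The CDP arrays were all below the CMP arrays, by 0.51 on average, in a range that was under the detection level on all 5. With no filter on dim probe sets this difference had an adjusted p of 0.178. The other Zfpm1 probe set, 1423603_at, sat at the table's lowest value on every array.

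Tal1, the helix-loop-helix factor of the complex, had 4.93, 6.23 and 7.30 on CDP 1, 2 and 3, against 7.51 and 6.90 on CMP 1 and 2. It was detected on 4 of 5 arrays and just missed the level on CDP 1, while CDP 3 lay between the CMP values. The means were 6.15 ± 1.19 in CDP and 7.20 ± 0.43 in CMP (SD), and the difference of -1.05 ± 0.70 (SE, 95% interval -2.76 to 0.66) did not pass (adjusted p = 0.54). The spread within CDP was larger than the difference. The 5′-poor arrays, 1 against 1 and with CDP 1 below detection, differed by -2.58, and the others by -0.13.

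Lyl1, the close relative of Tal1, had the higher mean in CDP. It read 9.59, 10.14 and 10.91 in CDP, against 9.23 and 9.72 in CMP. CMP 2 exceeded CDP 1, so the groups overlapped, and the difference of 0.74 ± 0.47 (SE, 95% interval -0.40 to 1.89) did not pass (adjusted p = 0.513). It was 0.37 between the 5′-poor arrays and 0.81 between the others.

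Lmo2, the LIM-only adaptor at the centre of the complex, read 11.35, 11.36 and 11.69 in CDP, against 12.31 and 12.78 in CMP. Every CDP array lay below every CMP array, and all 5 values were far above detection. The means were 11.47 ± 0.19 in CDP and 12.55 ± 0.33 in CMP (SD), a difference of -1.08 ± 0.33 (SE, 95% interval -1.89 to -0.27), or 2.12-fold lower in CDP. It did not pass the threshold (adjusted p = 0.197, unadjusted p = 0.0168). The difference was of similar size within both kinds of array, at -0.96 between the 5′-poor ones and -1.26 between the others, and with that division as a block the adjusted p was 0.0549.

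Ldb1, which dimerizes and so joins complexes bound at distant sites, read 5.27, 6.53 and 5.77 in CDP, against 5.21 and 7.67 in CMP. The lowest and the highest of the 5 values were both in CMP. The difference of -0.58 ± 0.78 (SE, 95% interval -2.48 to 1.31) did not pass (adjusted p = 0.788). CDP 1 and CMP 1, the 5′-poor arrays, were the dimmest for Ldb1, with 0.06 between them, against -1.52 between the others. Without CMP 2 the difference was 0.64, the opposite sign.

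Klf1, the red cell factor whose promoter above holds GATA and E-box letters, read 2.38 on all 3 CDP arrays, against 4.25 and 2.27 in CMP. CMP 1 alone stood above the rest, and it too was under the detection level. The groups overlapped, since CMP 2 was the lowest of all.

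**Figure D2:**
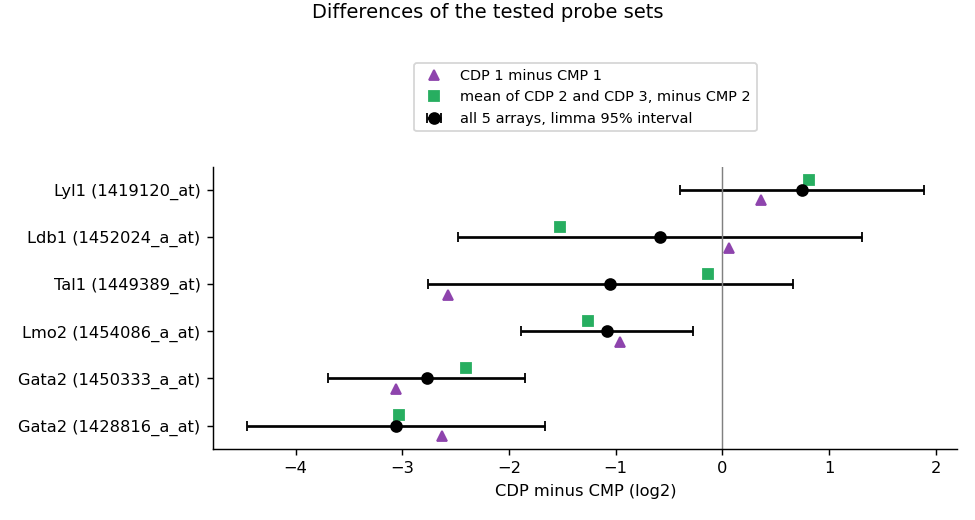
Differences, CDP minus CMP (log2), of the 6 tested member probe sets, with limma 95% intervals over all 5 arrays (black) and the differences within the 5′-poor arrays (triangles) and within the others (squares). The intervals of both Gata2 probe sets and of Lmo2 lie below 0, and those of Lyl1, Ldb1 and Tal1 include 0.

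Whether members differed by unequal amounts was examined by ratios within each array, for 4 pairs chosen with the values known. The log2 ratio of Gata2 to Lyl1, on the brighter Gata2 probe set, was -4.05, -4.83 and -5.60 in CDP, against -0.62 and -2.00 in CMP. Only the change of such a ratio between groups can be read, since probe sets differ in brightness. It was lower in CDP by 3.51 log2 units for Gata2 to Lyl1. The ratio of Lmo2 to Lyl1 was 1.76, 1.22 and 0.78 in CDP, against 3.09 and 3.06 in CMP, and changed by -1.82. Gata2 to Lmo2 changed by -1.69 and Tal1 to Lyl1 by -1.79. In all 4 pairs each CDP array lay below each CMP array. Gata2, Tal1 and Lmo2 were each set over Lyl1, the only tested member with a higher mean in CDP, and Ldb1 was in no pair. The pairs share members and are not independent. The share of all gene pairs without overlap was not computed, so this count is no result about the members. The exact 2-sided permutation test gave p = 0.2 for each pair (0.2 after adjustment over the 4), the smallest that 3 arrays against 2 allow.

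The DNA-binding and bridging partners of these factors were broadly present and none was called. Of 9 E proteins and LDB1 bridging partners 8 were tested, and 0 passed in limma (1 had an unadjusted p under 0.05), with a median difference of 0.26 against 0.12 over all tested probe sets. Tcf12, an E protein that pairs with Tal1, was at 0.14 ± 0.35 (SE, adjusted p = 0.903), and Ssbp2, which stabilizes Ldb1, was at -0.32 ± 0.34 (adjusted p = 0.721). Sp1, a factor reported with the complex, was at 0.38 ± 0.44 (adjusted p = 0.748). The 1 with an unadjusted p under 0.05 was Cbfa2t3, a corepressor of the complex, which read 8.79, 8.88 and 9.45 in CDP, against 8.30 and 7.51 in CMP (1.13 ± 0.40, adjusted p = 0.253). It is named after its values were seen.

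Runx1, Erg and Fli1 share many binding sites with Gata2, Tal1, Lyl1 and Lmo2 in stem and progenitor cells. All 3 differences were below 0 and 0 of 3 passed in limma (1 had an unadjusted p under 0.05). Runx1 had 10.38, 10.60 and 9.58 in CDP, against 11.37 and 11.31 in CMP, without overlap (-1.15 ± 0.40, adjusted p = 0.247). Fli1 was at -0.43 ± 0.72 (adjusted p = 0.835) and Erg at -0.62 ± 0.69 (adjusted p = 0.738), both with overlapping groups. The median of the 3 was -0.62.

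Of 15 corepressors of FOG1 and Tal1 with a probe set, 14 were tested and 0 passed in limma (2 had an unadjusted p under 0.05, both higher in CDP), with a median of 0.42. With the 5′ signal as a block Mbd2, a reader of methylated DNA, passed (1.34, adjusted p = 0.0469). Rbbp7 (-0.11 ± 0.34, adjusted p = 0.916) and Rbbp4 (0.57 ± 0.41, adjusted p = 0.581), histone-binding subunits, and the demethylase Kdm1a (0.40 ± 0.37, adjusted p = 0.675) were the brightest. The repressor Gfi1b, a partner of Gata1 and Kdm1a in red cells and megakaryocytes, failed the filter. It read 2.47, 3.03 and 2.70 in CDP, against 5.02 and 4.23 in CMP, so 1 CMP array reached detection. Among 9 paralogs of the members, 7 were below log2 5 on all arrays. Of the 2 tested, 0 passed (1 had an unadjusted p under 0.05). Lmo1 had 6.08, 6.15 and 6.23 in CDP, against 4.77 and 5.37 in CMP (1.08 ± 0.33, adjusted p = 0.2), which is the reverse of the order of Lmo2. Lmo4 was at -0.36 ± 0.48 (adjusted p = 0.788).

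In lists of genes of the lineages in which these factors act, the genes called lower in CDP were Hdc, Cpa3, Kit, Angpt1, Myct1 and Pf4. They made up 3 of 5 tested mast cell genes, 3 of 9 tested stem cell genes and 1 of 4 tested megakaryocyte genes, with Kit in both of the first lists. Among all tested probe sets 0.423% were called lower and 1.31% higher. Cpa3, Myct1 and Pf4 met the filter only through the CMP arrays, the group where they were high. Likewise Itgax and Il7r, the genes called higher, met it only through the CDP arrays. Over all 12 lists, 121 genes had a probe set and 59 were tested, of which 6 were lower and 2 higher, and the count fell to between 0 and 1 when any 1 array was left out (17 to 25 had an unadjusted limma p under 0.05). Members of the lists were chosen with earlier results of these arrays known, so their direction is no independent evidence.

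Of 11 mast cell and basophil genes 5 were tested, 3 were called lower and 2 did not pass, with a median of -2.57. Hdc, the enzyme that makes histamine, read 4.55, 5.42 and 4.55 in CDP, against 10.29 and 8.93 in CMP, and was lower in CDP by a factor of at least 22.1 (adjusted p = 0.0217). Cpa3, a protease stored in mast cell granules, read 2.26 on each CDP array, the lowest value in the table, against 8.76 and 6.25 in CMP (adjusted p = 0.0346). Kit, the stem cell factor receptor, had 7.75, 7.18 and 7.70 in CDP, against 10.04 and 10.20 in CMP (adjusted p = 0.0318), and was itself used in the sort. Mcpt8, a protease of basophils, had 5.76, 5.81 and 6.04 in CDP, against 7.52 and 8.15 in CMP, and did not pass (-1.97 ± 0.34, adjusted p = 0.0558). It passed with the 5′ signal as a block (adjusted p = 0.0118) and with the replicate block (adjusted p = 0.0403). It also passed with quantile normalization again (adjusted p = 0.043) and with centring on the median of tested probe sets (adjusted p = 0.0455). In the limma fit by gene, with probe sets averaged, it passed too (adjusted p = 0.0308), with its difference unchanged at -1.97. Mitf, a transcription factor of mast cells, went the other way without overlap or passing, with 8.05, 7.86 and 8.10 in CDP, against 7.64 and 6.37 in CMP (1.00 ± 0.45, adjusted p = 0.354). With no filter 0 genes of the list were called. The list summed on the linear scale to between 511 and 605 on the CDP arrays, against 3154 on CMP 1 and 2131 on CMP 2. The mast cell markers Fcer1a, Cma1, Mcpt4, Tpsb2 and Tpsab1 were within 0.02 of the table's lowest value on all 5 arrays. The part of mast cell or basophil transcripts in the Gata2 difference was not tested.

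Of 11 stem and progenitor genes 9 were tested, 3 were called lower and 6 did not pass, with a median of -1.33. Angpt1, the ligand of the receptor Tie2, read 5.33, 4.17 and 5.77 in CDP, against 10.04 and 9.37 in CMP, lower by a factor of at least 20.2 (adjusted p = 0.0244). Myct1 had 2.26, 2.26 and 3.89 in CDP, against 8.66 and 7.34 in CMP (adjusted p = 0.0309). Kit, given above, was the other called gene. Eng, a receptor subunit of progenitors and endothelium, was at 0.54 ± 0.43 (adjusted p = 0.611). With the 5′ signal as a block 6 genes were called, with Cd34, Meis1 and Procr added, all lower. With no filter Tek, below log2 5 on all arrays, was the only one called. The list summed to between 5931 and 11490 on the CDP arrays, against 22490 on CMP 1 and 18120 on CMP 2.

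**Figure D3:**
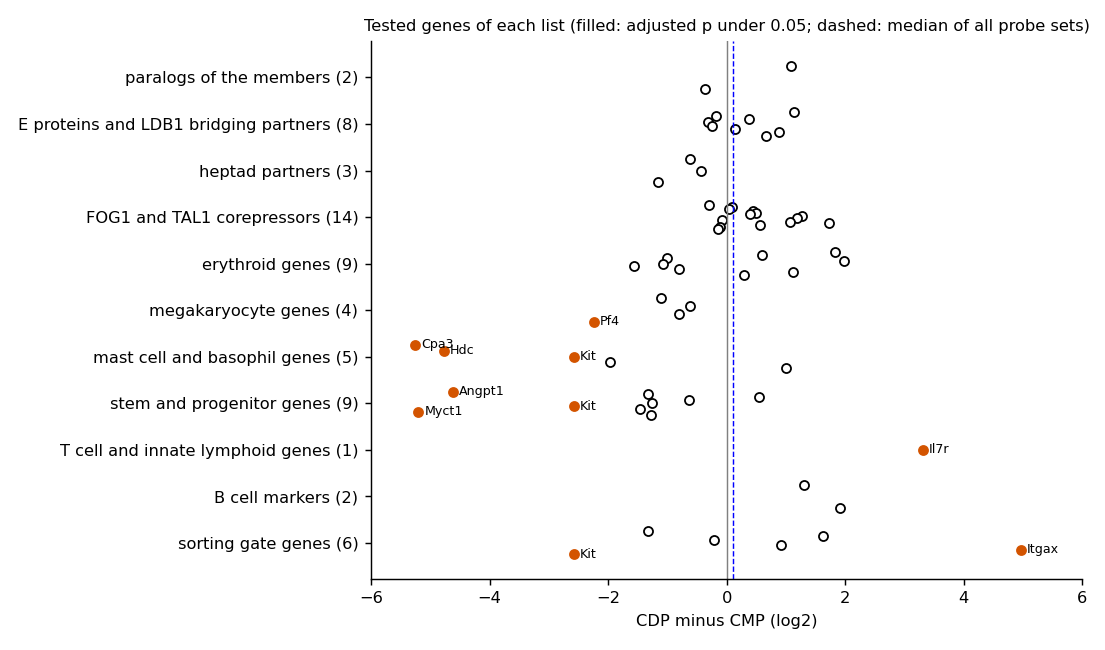
Differences, CDP minus CMP (log2), of the tested genes of each list, with the number tested in brackets, filled points for an adjusted p under 0.05 and a dashed line at 0.12, the median of all tested probe sets. Called genes lie to the left in the mast cell, stem cell and megakaryocyte lists, and the erythroid genes spread to both sides of 0.

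Red cell genes gave 0 calls among 9 tested of 24 with a probe set (limma, 3 had an unadjusted p under 0.05, all higher in CDP), with a median of 0.30. E2f2, a cell cycle factor, had 9.23, 10.12 and 9.31 in CDP, against 7.34 and 7.83 in CMP, without overlap (1.97 ± 0.41, adjusted p = 0.0859). It passed with the 5′ signal as a block (adjusted p = 0.0226), with the replicate block (adjusted p = 0.0357) and with probe sets averaged (adjusted p = 0.0466). Hba-a1, an alpha-globin gene, and Epor, the erythropoietin receptor, read 2.26 and 2.41 on every array. Alas2, the first enzyme of heme synthesis in red cells and a textbook GATA1 target, read 8.80 on CDP 2 and 2.26 on each of the other 4 arrays. Slc4a1, the anion exchanger of the red cell membrane, likewise read 9.89 on CDP 2 and at most 2.34 elsewhere. Rhd (5.61) and Epb42 (6.03), of the red cell surface and skeleton, were also above detection on CDP 2 alone. CDP 2 thus stood apart in these genes as it did in the neutrophil markers, while its Gata1 (3.19) and Klf1 (2.38) were below detection. Without CDP 2 the differences of members were -2.73 for Gata2 on its brighter probe set, -1.03 for Lmo2, -1.09 for Tal1, 0.78 for Lyl1 and -0.92 for Ldb1, of which 0 passed in limma (2 of the 6 probe sets had an unadjusted p under 0.05). The brightest tested genes of the list were Tfrc, the transferrin receptor (1.13 ± 0.41, adjusted p = 0.265), Urod (0.30 ± 0.44, adjusted p = 0.805) and Bpgm (0.59 ± 0.97, adjusted p = 0.831). Of the 9 tested genes, 5 had a higher mean in CDP and 4 a lower one. The 4 were Hemgn (mean 7.71 in CDP, 9.28 in CMP), Ermap (4.94, 6.01), Car2 (7.43, 8.43) and Nfe2 (8.31, 9.11). Their adjusted p ran from 0.368 for Nfe2, which alone among them had no overlap, to 0.789 for Car2. Car1, not tested, reached detection on CMP 1 alone (6.87).

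Megakaryocyte genes were mostly undetected, with 9 of 13 below log2 5 on all arrays. Of the 4 tested, Pf4, or platelet factor 4, was called lower, with 3.16, 3.48 and 3.89 in CDP, against 5.77 and 5.72 in CMP, at least 1.68-fold (adjusted p = 0.045). The other 3 did not pass, and the median was -0.96. Pf4 was no longer called when any 1 CDP array was left out, with a filter at log2 4 or none, with a trended variance or with array weights. At the filter of log2 7 and without either CMP array it could not be tested. The list summed to between 442 and 591 on the CDP arrays, against 731 on CMP 1 and 1039 on CMP 2.

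Of 11 T cell and innate lymphoid genes, which bear on Gata3, 10 were below log2 5 on all arrays, including the CD3 chains Cd3d, Cd3e and Cd3g. The exception was Il7r, the IL-7 receptor alpha chain, which read 6.75, 6.10 and 5.69 in CDP, against 2.53 and 3.20 in CMP. It was at least 2.27-fold higher in CDP (adjusted p = 0.0318). Il7r was not called with no filter or when any 1 array was left out, and could not be tested at the filter of log2 7. Among 6 B cell genes 2 were tested and 0 passed in limma (both had an unadjusted p under 0.05 and were higher in CDP), namely Cd79b (1.31 ± 0.49, adjusted p = 0.272) and Vpreb1 (1.91 ± 0.50, adjusted p = 0.145). Both passed with the 5′ signal as a block (adjusted p = 0.0438 for Cd79b and 0.0401 for Vpreb1). Vpreb1 read 4.96 and 3.45 in CMP and met the filter only through the CDP arrays, the group where it was high. Its tests are therefore no separate support.

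**Figure D4:**
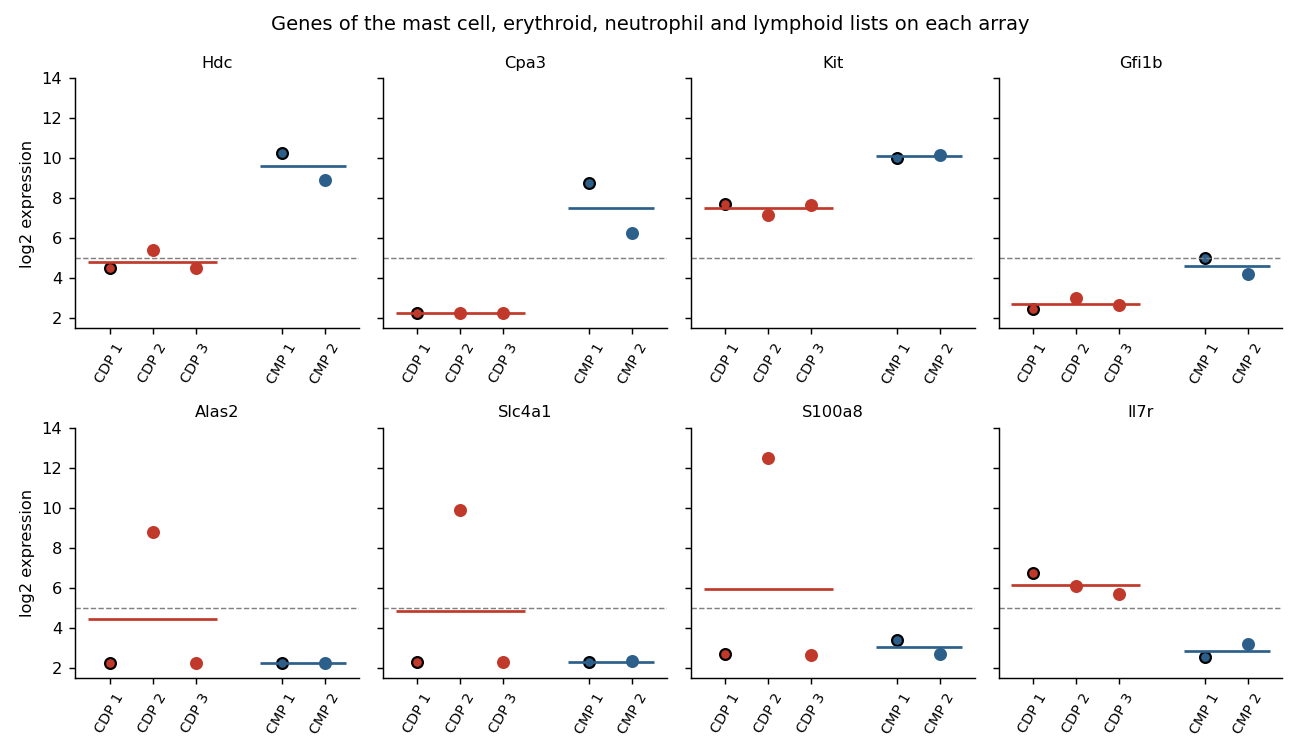
Log2 expression of 8 genes of the mast cell, erythroid, neutrophil and lymphoid lists on the 3 CDP arrays (red, left) and the 2 CMP arrays (blue, right), with lines at group means, a dashed line at log2 5 and black edges on the 5′-poor arrays. Hdc, Cpa3, Kit and Gfi1b are lower on all CDP arrays, and Alas2, Slc4a1 and S100a8 stand out on CDP 2 alone.

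For each tested member, the 3 genes with the most similar pattern were found by the Euclidean distance between log2 values centred on their mean over the 5 arrays, among 8448 other tested genes. For Gata2 they were Inpp1 (distance 0.38), Cttn (0.58) and Itih5 (0.63), against a median distance of 3.46. Inpp1 read 5.47, 5.10 and 4.79 in CDP, against 8.12 and 7.49 in CMP, and was called lower (adjusted p = 0.0369). Since it was picked for its likeness to Gata2, a similar difference follows from the choice, and its call is no separate support. For Tal1 they were Limk1 (0.59), Basp1 (0.73) and Erg (0.80), against a median of 2.40. Erg, already named among the partners, had 6.69, 8.56 and 8.95 in CDP, against 8.71 and 8.66 in CMP, with CDP 1 the lowest as for Tal1. For Lmo2 they were Dkc1 (0.24), Impdh1 (0.27) and Eif1a (0.29), for Lyl1 Dlgap4 (0.12), Dctn5 (0.17) and Yipf3 (0.17), and for Ldb1 Isy1 (0.13), Alyref (0.17) and Trmu (0.25). Median distances were 1.73, 1.48 and 2.30 for Lmo2, Lyl1 and Ldb1. With 5 arrays many genes share a pattern, and Isy1, Alyref and Trmu, like Ldb1, were dimmest on the 5′-poor arrays.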

How the data were processed

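The authors deposited log2 values for 45037 probe sets, besides control probe sets, on 5 arrays. They came from GCRMA, per the submitters' processing notes, a method with background correction by sequence, quantile normalization and a summary over each set. Its version is not given in the sources used here. Per the labels' protocols, cells were sorted and sorted again, and RNA was amplified over 2 cycles. The values were not normalized again. Groups were taken from sample titles, 1 of which has another prefix, as the report says. The contrast of CDP and CMP was fitted by lmFit and eBayes of limma 3.58.1 under R 4.3.3, 2-sided, on probe sets at or above log2 5 on at least 2 arrays, with 3 residual and 3.14 prior degrees of freedom. Adjusted p-values are those of this fit where no other setting is given. The procedure was tested on simulated data. Differences are CDP minus CMP. In the lists a gene was represented by its brightest tested probe set, while every member probe set is given. Where an array of the dimmer group lay below log2 5 the fold is a lower bound, with values below 5 set to 5. Named were all member probe sets, in each list the called genes, at most 4 and by adjusted p (otherwise the 3 brightest tested), and 3 nearest patterns per member. Other genes were named after their values were seen. Members, lists and settings were chosen with earlier results of these data known. Promoters are from RefSeq, GRCm38.p6, and matched 8 of 9 members. The number of arrays limits the precision.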

Additional observations from a re-analysis of the deposited data

How the results depend on the processing

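Over all settings tried for each, the differences of both Gata2 probe sets, Lmo2, Tal1 and Lyl1 kept their direction, and that of Ldb1 ran from -1.81 without CMP 1 to 0.64 without CMP 2. The brighter Gata2 probe set was called in every setting that kept all arrays and a filter, and not with no filter (adjusted p = 0.182). At the filter of log2 7 it was tested only through the CMP arrays, the group where it was high. Its call in that setting is therefore no separate support. The dimmer one was called with array weights (adjusted p = 0.0412), with the replicate block (adjusted p = 0.018, and 0.0212 for the brighter one) and with the 5′ signal block, and could not be tested at the filter of log2 7 or without either CMP array. Member probe sets called numbered 1 in the main setting, 0 with no filter, and 2 with array weights, with the replicate block or with the 5′ signal as a block, and 0 when any array was left out. Probe sets called over all genes numbered 287, against 55 with no filter, 608 with the replicate number as a block, 1438 with the 5′ signal as a block and 0 to 44 without 1 array. In limma 1490 to 3200 had an unadjusted p under 0.05 without 1 array, and of the member probe sets 1 to 4 did. Genes called over the lists numbered 8, against 5 at the filter of log2 7, 1 with no filter, 17 with the 5′ signal as a block, 12 with each gene's probe sets averaged and 0 to 1 without 1 array. The cause of these changes was not tested. With a CMP array left out, the lone CMP array is assumed to vary like the CDP arrays. Deviations from group means correlated at 0.61 for CDP 1 with CMP 1, 0.58 for CDP 2 with CMP 2 and 0.33 for CDP 3 with CMP 2. With 2 CMP arrays, the deviations of CMP 1 and CMP 2 are mirror images, so their correlations differ only in sign. The labels tie the numbers to no common animal or day, so the arrays were not taken as pairs. The replicate block in effect leaves CDP 3 out of the contrast, since no CMP array has its number. The replicate block and the 5′ signal block each leave fewer residual degrees of freedom than the main fit. The smaller p-values of either are therefore not read as stronger support. At a detection level of log2 4, 7 member probe sets would be tested, and at log2 7, 4.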
